A study of Mus musculus with 4 samples.

Results

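The genes described here are 10 genes of insulin and insulin-like growth factor (IGF) signalling, measured in prefrontal cortex from B6J mice aged 3 months: Igf1 and Igf2, Insr, Igf1r and Igf2r, Irs1 and Irs2, and Igfbp2, Igfbp4 and Igfbp5. They were chosen by name, as every non-control probe whose gene name in the scanner files was one of these, which gave 19 probes of 56605 on the array. All 19 were well above background on all 4 arrays, as were 42094 probes in all. Those stood for 19176 genes with a RefSeq name, each represented by its brightest probe. The arrays crossed diet with genotype. Wild-type mice and Glo1 heterozygous mice, Glo1 being the gene of an enzyme that clears methylglyoxal, ate a starch or a sucrose diet. Feeding began on postnatal day 21 and lasted about 70 days. The groups were wild-type starch, the controls, wild-type sucrose, Glo1 heterozygous starch and Glo1 heterozygous sucrose. Per the labels, RNA from 3 mice was pooled for each group, and each pool was labelled with Cy3 and hybridised to 1 one-colour array, so no group had a replicate.

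Insulin and the IGFs are secreted hormones that bind the receptor tyrosine kinases encoded by Insr and Igf1r. The activated receptors phosphorylate the docking proteins encoded by Irs1 and Irs2, which pass the signal to phosphatidylinositol 3-kinase (PI3K), Akt and mTOR and keep the FoxO transcription factors out of the nucleus. The product of Igf2r removes IGF2 from the cell surface without signalling as a kinase, and the IGF binding proteins carry IGFs and limit or extend their access to receptors. In the adult brain Igf2 is best known from the choroid plexus, the meninges and vessels, and Igf1 from neurons and glia.

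The probes are oligonucleotides of 60 bases, and all probes of Igf2, Irs2, Igf2r and Igfbp2 are shown, the 4 members whose brightest probe had the widest range over the arrays, because the values of these genes rest on these sequences alone. The Igf2 and Igf2r probes are given by their first 30 bases. The Igfbp2 and Irs2 probes are given whole, and the capitals at the end of the Igfbp2 probe mark a stop codon that closes an otherwise open reading frame. All are 5′ to 3′ as deposited, and positions are those of the files on build mm9.
Igf2 A_51_P516833, chr7:149837115-149837174: gacagaaactcaaagagtaaattgttataa
Igf2 A_55_P2118173, chr7:149839661-149839720: atcaaattatgtggtaattctgcaatgtag
Igf2r A_51_P125467, chr17:12875253-12875263: agagttgtatataggtggcatttacatacc
Igfbp2 A_55_P2056729, chr1:72898677-72898736: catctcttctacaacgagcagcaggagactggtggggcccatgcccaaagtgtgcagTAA
Irs2 A_66_P102260, chr8:11004490-11004549: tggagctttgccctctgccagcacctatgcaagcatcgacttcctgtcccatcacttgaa
The file gives the Igf2r probe a span of 11 bases only, fewer than its length. Igf2r lies on chromosome 17, as does Glo1, whose brightest probe is at 30729951 to 30730010. Whether a probe lies in a coding or untranslated part was not analysed here, since no annotation of build mm9 was used.

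All levels below are signals as multiples of the array's 75th percentile, and all changes are differences of log2 levels between single arrays. The 75th percentile lay between 1780 and 1929 intensity units, and 77.6% to 80.2% of non-control spots were well above background. A level is compared only between arrays, never between probes. Without replicate arrays, the only measured error was that of repeated spots on 1 array. The SD it gives for a difference of single spots was 0.06 for probes in the brightest of 4 equal signal classes (297 repeated probes), 0.11 in the next (7 probes), 0.14 in the one below (4 probes) and 0.24 in the dimmest (4 control probes). That error leaves out the spread between mice, pools, labellings and arrays. Glo1 was lower in heterozygous mice: the change of its brightest probe was -0.56 on starch and -0.86 on sucrose. All 12 markers of cortical excitatory neurons were well above background on every array.

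The differences among the members were small. Over 10 genes and 5 pairwise comparisons, 0 of 50 changes reached 2-fold and 3 reached 1.5-fold, all of Igf2. For all genes the share past 2-fold was 1.44% for diet in wild-type mice and 1.77% in heterozygous mice. It was 0.777% for genotype on starch, 1.76% on sucrose, and 1.98% for the heterozygous sucrose array against wild-type starch. The interaction, the diet change in heterozygous minus that in wild-type mice, reached a log2 value of 1 in 0 members and in 2.77% of all genes, and the 1.5-fold size in 0 members and 8.02%. At such shares, 0 of 10 in each comparison does not set the members apart from other genes. The 1.5-fold share of all genes was 5.53% for diet in heterozygous mice, 4.49% for genotype on sucrose and 7.14% for heterozygous sucrose against wild-type starch, the comparisons in which Igf2 passed. It was 3.66% for genotype on starch and 5.72% for diet in the wild type, where 0 members passed. The comparisons share arrays, and those 3 have the heterozygous sucrose array in common.

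**Figure D1:**
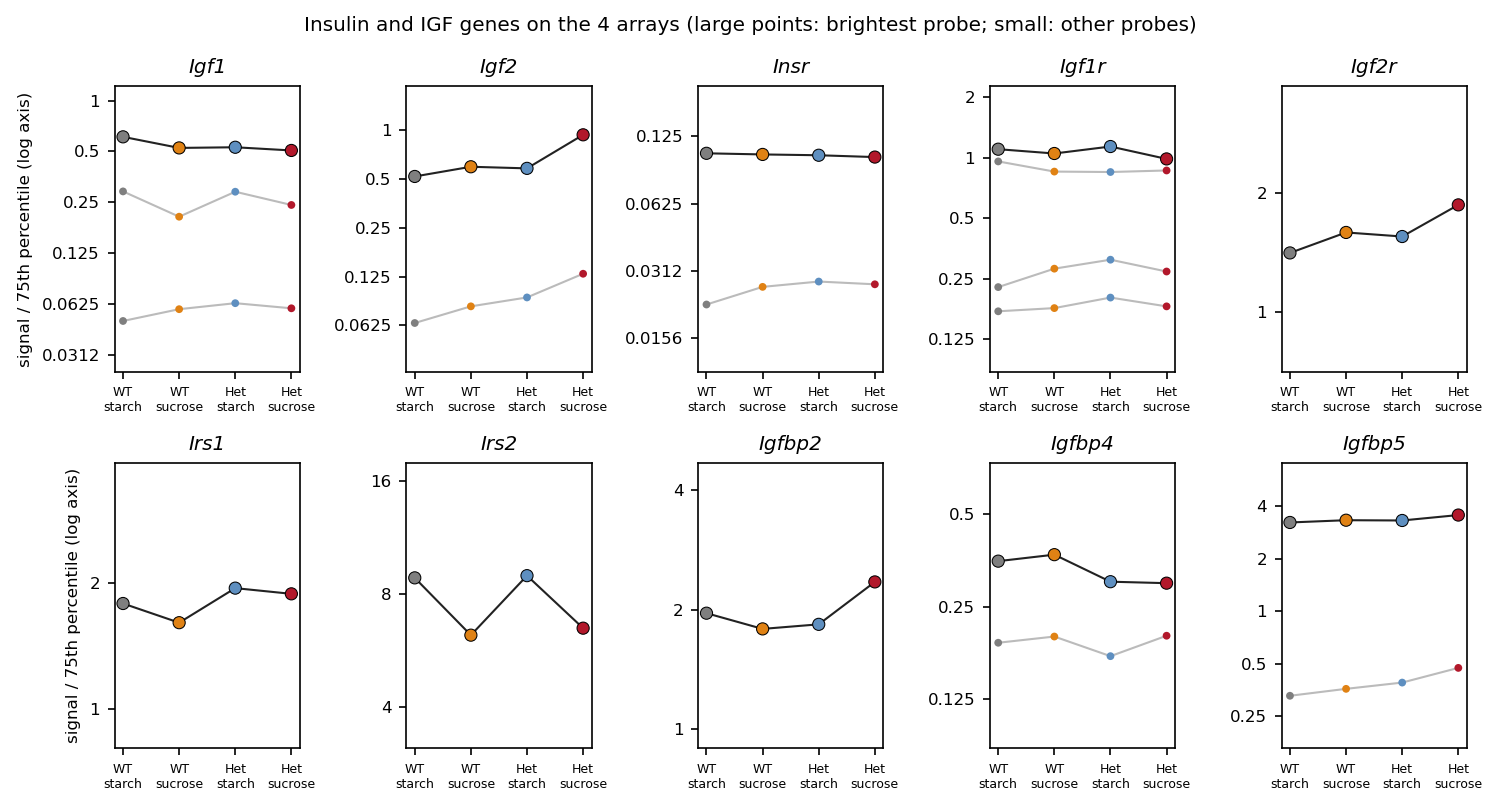
Signal of each member on the 4 arrays as a multiple of the array's 75th percentile, on a log axis that spans a different range in each panel. Large points are the brightest probe of a gene and small points its other probes; lines join the points of a probe. Igf2 is highest on the heterozygous sucrose array (0.935), and Irs2 is lower on both sucrose arrays (6.23 and 6.50) than on both starch arrays (8.84 and 8.96).

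Of the ligands, Igf2, a growth factor of fetal tissue that stays expressed in a few adult brain structures, differed most. Its brightest probe stood at 0.517 on wild-type starch, 0.594 on wild-type sucrose, 0.581 on heterozygous starch and 0.935 on heterozygous sucrose. The heterozygous sucrose array was above the other 3, which lay within a narrow band. The diet change was 0.20 in the wild type and 0.69 in heterozygous mice, and the genotype change was 0.17 on starch and 0.65 on sucrose. The values of 0.20 and 0.17 were under 2 SDs of a difference of single spots, while 0.69 and 0.65 were 6.38 and 6.08 such SDs. From wild-type starch to heterozygous sucrose Igf2 differed by 0.85, a 1.81-fold difference. Of all genes, at any signal, 2.93% differed by at least as much.

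The second Igf2 probe, a dimmer one, gave 0.0646, 0.0818, 0.0929 and 0.130 in the same order of arrays. It was thus lowest on wild-type starch and highest on heterozygous sucrose too. Its diet changes were 0.34 and 0.49 and its genotype changes 0.52 and 0.67, all over 2 spot SDs (0.14 at its signal). From wild-type starch to heterozygous sucrose it differed by 1.01, past 2-fold, where the brighter probe did not reach it. Both probes had the same sign in all 5 pairwise comparisons. The interaction was 0.49 for the brighter and 0.14 for the dimmer probe, so the probes differed on how much larger the diet change was in heterozygous mice.

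Markers of the choroid plexus moved with Igf2. The 10 measured markers of 11 listed had a summed level of 1.10, 1.18 and 1.31 on the wild-type starch, wild-type sucrose and heterozygous starch arrays and of 13.6 on heterozygous sucrose. All 10 were higher there than on heterozygous starch, with a median of 3.60, and 8 of them by 2-fold or more. Among them, Kcne2, a potassium channel subunit of choroid plexus epithelium, stood at 0.0126, 0.0419, 0.0130 and 1.39, and Folr1, the folate receptor of the same epithelium, at 0.0772, 0.0976, 0.0356 and 2.72. Slc4a5 was well above background on at most 2 arrays. The 6 measured ependymal markers were also all higher with sucrose in heterozygous mice, with a median of 1.25. Markers of meningeal fibroblasts, which express Igf2 as well, had a summed level of 11.5, 11.5, 12.8 and 14.2, and the median of their 10 diet changes in heterozygous mice was -0.16, with 3 of them higher. Dcn, the proteoglycan decorin, was the largest of these with 0.81. The part of these cell types in the Igf2 difference was not tested. In tissue RNA, more cells of a type and more RNA per cell cannot be told apart. In the comparisons without the heterozygous sucrose array, the brightest Igf2 probe differed by 0.20 for diet and 0.17 for genotype, and the dimmer probe by 0.34 and 0.52. The choroid plexus markers had medians of 0.29 and 0.02 there, with 7 and 5 of 10 higher. The meningeal markers had medians of 0.08 and 0.17, with 7 and 9 of 10 higher. The ependymal markers had -0.34 and -0.30, with 1 and 0 of 6 higher. For genotype on sucrose, 8 of 10 meningeal markers were higher, with a median of 0.05.

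Igf1, a growth factor for neurons and myelin, was highest on the wild-type starch array by its brightest probe, at 0.610, against 0.524 on wild-type sucrose, 0.529 on heterozygous starch and 0.507 on heterozygous sucrose. Its diet changes were -0.22 and -0.06 and its genotype changes -0.21 and -0.05. A second probe, A_51_P147942, stood at 0.290, 0.205, 0.289 and 0.241, lower on both sucrose arrays, with diet changes of -0.50 and -0.26 and genotype changes of -0.01 and 0.23. The remaining probe, A_52_P306327, matched to a cDNA clone, ran from 0.0495 to 0.0631 and was lowest on wild-type starch, where the brightest probe was highest. The 3 probes had the same sign in 1 of the 5 pairwise comparisons, diet in heterozygous mice, so no direction of Igf1 for genotype held across its probes.

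**Figure D2:**
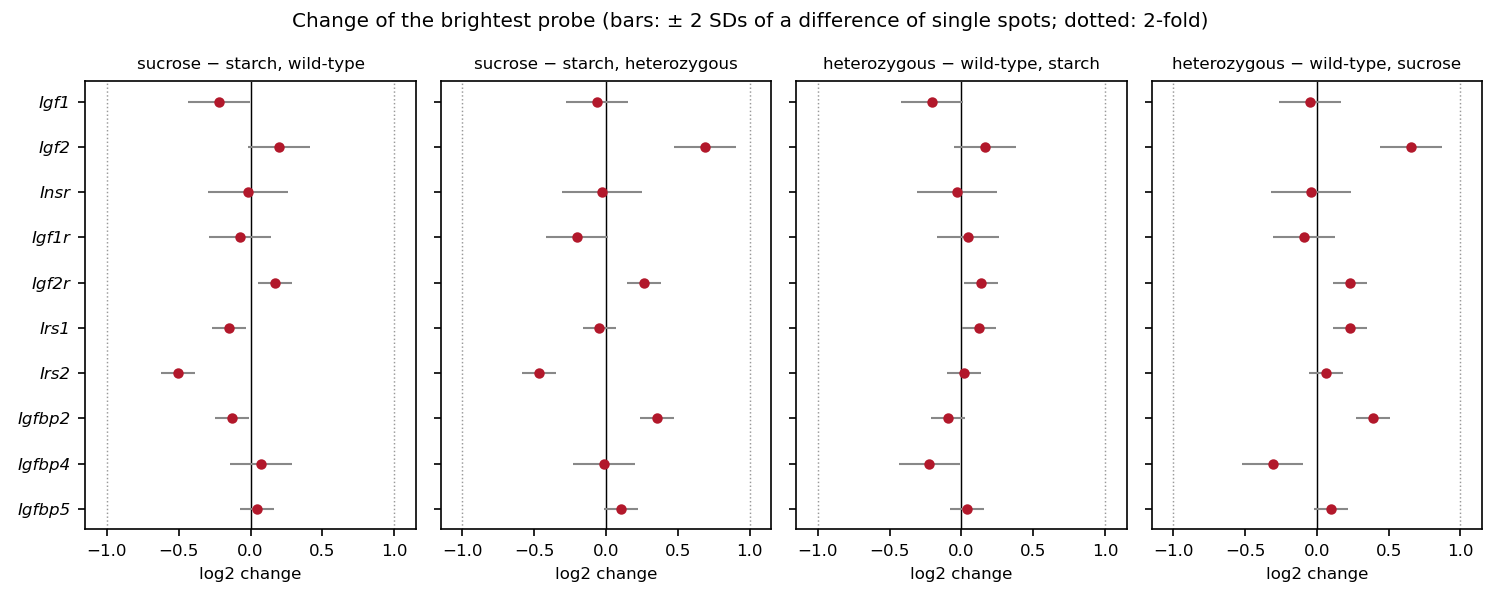
Log2 change of the brightest probe of each member in the diet and genotype comparisons. Bars are 2 SDs of a difference of single spots to each side, which cover spot error only, and dotted lines mark 2-fold. No point reaches 2-fold; Igf2 lies at 0.69 and 0.65 in the comparisons that use the heterozygous sucrose array, and Irs2 at -0.51 and -0.46 for diet.

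Among the receptors, Insr, the insulin receptor, was nearly level by its brightest probe, at 0.105, 0.104, 0.103 and 0.101. Its 5 pairwise changes lay between -0.06 and -0.02, each under 1 SD of a difference of single spots. The dim probe A_52_P6490 stood at 0.0221 on wild-type starch and between 0.0265 and 0.0280 on the other arrays. Its differences of 0.26 to 0.34 from wild-type starch were under 2 spot SDs, given the 0.24 of the dimmest probes.

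Igf1r, the IGF1 receptor, had 4 probes. The brightest gave 1.10, 1.05, 1.14 and 0.987, with diet changes of -0.07 and -0.20 and genotype changes of 0.04 and -0.09. The second RefSeq probe, A_55_P2736764, was 0.959 on wild-type starch and between 0.850 and 0.865 elsewhere. Both probes matched to cDNA clones were lowest on wild-type starch and highest on heterozygous starch, at 0.227 and 0.311 for A_55_P2804885 and at 0.172 and 0.202 for A_52_P668647. In 0 of the 5 comparisons did all 4 probes share a sign, and their changes differed by up to 0.63.

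Igf2r, the cation-independent mannose 6-phosphate receptor that clears IGF2, was lowest on wild-type starch at 1.41 and highest on heterozygous sucrose at 1.87, with 1.59 on wild-type sucrose and 1.55 on heterozygous starch. Those last levels differed by less than 1 spot SD. The diet changes were 0.17 and 0.27 and the genotype changes 0.14 and 0.23, all over 2 spot SDs. The difference of 0.40 between the outer arrays was matched or exceeded by 14.2% of all genes, at any signal. Igf2r thus had the same order of its lowest and highest arrays as Igf2, at a smaller range of 1.32-fold against 1.81-fold.

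Of the receptor substrates, Irs2 differed with diet. Its signal was 8.84 on wild-type starch and 8.96 on heterozygous starch, and 6.23 and 6.50 on the wild-type and heterozygous sucrose arrays. Both starch levels were above both sucrose levels, and the share of all genes separated by diet in this way was not counted. The diet change was -0.51 in the wild type and -0.46 in heterozygous mice, or 8.59 and 7.87 SDs of a difference of single spots, and these comparisons share no array. Of all genes, at any signal, 7.68% and 8.40% differed by at least as much. Large changes were rarer among bright genes. With only probes above the median signal, 0.501% and 0.517% of genes passed 2-fold in these comparisons, against 1.44% and 1.77% of all genes. The genotype changes, 0.02 and 0.06, and the interaction, 0.04, were at or under about 1 spot SD. Irs2 was measured by 1 probe, so no second probe bears on it.

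Several marker lists were also lower on both sucrose arrays than on both starch arrays. The summed level of the 6 blood markers was 242 and 204 on wild-type and heterozygous starch and 121 and 135 on the sucrose arrays. The 8 endothelial markers summed to 32.9 and 29.8 on starch and to 24.7 and 24.8 on sucrose, but their median diet changes were 0.03 and -0.07. The 6 olfactory bulb markers summed to 10.3 and 9.70 on starch and to 2.44 and 5.44 on sucrose. The 8 astrocyte markers summed to 168 and 157 on starch and to 153 and 143 on sucrose. The 8 oligodendrocyte markers summed to 92.0 on both starch arrays and to 83.1 and 85.8 on sucrose, with median diet changes of -0.12 and -0.08. Their part in the Irs2 difference was not tested. The striatal list did not follow diet: its 9 measured markers summed to 32.4, 53.7, 49.8 and 27.8.

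**Figure D3:**
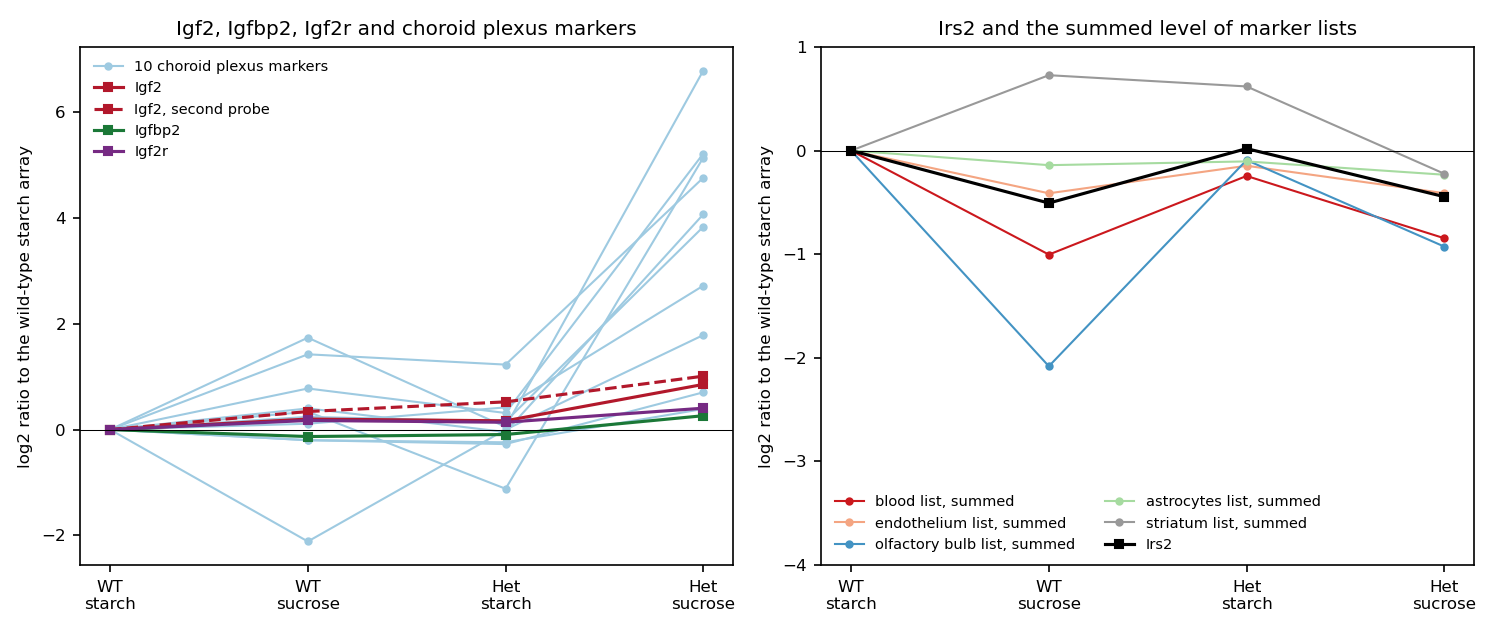
Log2 ratio of each array to the wild-type starch array. Left, both Igf2 probes, Igfbp2 and Igf2r with the 10 measured choroid plexus markers, 1 line each, all highest on the heterozygous sucrose array. Right, Irs2 with the summed level of 5 marker lists; Irs2 and the blood, endothelial and olfactory bulb sums are lower on both sucrose arrays than on both starch arrays.

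Irs1, the other main substrate, was 1.79 and 1.61 on wild-type starch and sucrose and 1.94 and 1.88 on the heterozygous arrays. Both heterozygous levels were above both wild-type levels, and the share of all genes separated by genotype in this way was not counted. The genotype change was 0.12 on starch and 0.23 on sucrose, or 2.07 and 3.89 spot SDs. The diet changes were -0.15 and -0.05.

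Among the binding proteins, Igfbp2, a main IGF carrier of cerebrospinal fluid, stood at 1.96, 1.79 and 1.84 on wild-type starch, wild-type sucrose and heterozygous starch and at 2.35 on heterozygous sucrose. The last array was above the other 3. The diet change was -0.13 in the wild type and 0.36 in heterozygous mice, and the genotype change was -0.09 on starch and 0.39 on sucrose. The interaction was 0.49, and 11.2% of all genes, at any signal, had one at least as large in size. Igfbp2 has 1 probe, and the choroid plexus and ependymal marker values given with Igf2 apply here as well. Whether they account for any of the Igfbp2 difference was not tested.

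Igfbp5, the neighbour of Igfbp2 on chromosome 1, had a narrow range by its brightest probe, at 3.22, 3.32, 3.30 and 3.55. Its widest difference, from wild-type starch to heterozygous sucrose, was 2.40 spot SDs. The diet changes were 0.04 and 0.10, and 0.04 and 0.10 were also the genotype changes. Its dimmer probe A_66_P101782 had the same lowest and highest arrays over a wider range, with 0.327 on wild-type starch, 0.359 and 0.389 in between and 0.473 on heterozygous sucrose, a difference of 0.53 between the outer arrays against 0.14 for the brightest probe. Both probes had the same sign in all 5 pairwise comparisons.

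Igfbp4, a binding protein that mostly restrains IGF action, was lower in heterozygous mice by its brightest probe, at 0.352 and 0.369 on the wild-type arrays and 0.301 and 0.298 on the heterozygous arrays. The genotype changes were -0.22 and -0.31, or 2.07 and 2.87 spot SDs. The second probe, A_51_P398971, gave 0.190, 0.200, 0.172 and 0.201, with genotype changes of -0.15 and 0.01, so the lower level on sucrose was not seen by both probes. The probes had the same sign in 2 of the 5 comparisons.

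Read over all 10 members, the median change lay between -0.04 and 0.08 in the 6 contrasts, where the median of all genes lay between -0.02 and 0.00. The median size of change of the members was 0.14 for diet in wild-type mice, as it was for all genes. It was 0.15 for diet in heterozygous mice (all genes 0.11), 0.11 for genotype on starch (0.12), 0.16 on sucrose (0.11), 0.25 from wild-type starch to heterozygous sucrose (0.15) and 0.10 for the interaction (0.15). More than 2 SDs of a difference of single spots were reached by 5, 4, 3 and 5 members for diet in wild-type and heterozygous mice and for genotype on starch and sucrose. Of all genes 35.2%, 27.8%, 27.7% and 25.6% did so. From wild-type starch to heterozygous sucrose 7 of 10 members did, against 39.4% of all genes, and for the interaction 2 of 10 did, against 23.6%. All members but Insr lay in the 2 brightest signal classes, which have the smaller spot SDs. The shares of all genes were not matched for signal, so the counts and shares are not on equal terms.

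An additive model of diet and genotype fitted with limma over all 42094 probes, which takes the interaction as error and has 1 residual degree of freedom, called 0 of the 19 member probes at an adjusted p under 0.05 for either factor. limma called 0 probes in all (0.0%). At an unadjusted p under 0.05 it had 3 of the 19 for diet, where 8.8% of all probes did, and 2 of the 19 for genotype, where 6.42% did. The diet effect of Irs2 was -0.49 ± 0.09 (SE, adjusted p = 0.532, limma), lower on sucrose in both genotypes. That of the dimmer Igf2 probe was 0.41 ± 0.10 (SE, adjusted p = 0.533, limma), and its genotype effect was 0.60 ± 0.10 (SE, adjusted p = 0.733, limma). The remaining diet value was that of the Igf1 probe A_51_P147942 (-0.38 ± 0.11, SE, adjusted p = 0.546, limma), and the second genotype value that of the Igfbp5 probe A_66_P101782 (0.32 ± 0.10, SE, adjusted p = 0.733, limma).

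The other genes of the pathway were taken from lists of 87 genes, of which 85 were measured on all 4 arrays. For diet in wild-type mice 50 were higher and 35 lower on sucrose, with a median of 0.04, where 49.6% of all genes were higher. In heterozygous mice 43 were higher and 42 lower, with a median of 0.01, against 50.3% of all genes. For genotype 47 were higher on starch (45.4% of all genes) and 37 on sucrose (44.7%), with medians of 0.03 and -0.03. From wild-type starch to heterozygous sucrose 54 of 85 were higher, against 46.8% of all genes. In the order of these 5 comparisons, 3, 2, 0, 3 and 1 of the 85 pathway genes reached 2-fold, where 1.44%, 1.77%, 0.777%, 1.76% and 1.98% of all genes did. The 1.5-fold size was reached by 6, 6, 1, 7 and 5 of them, where 5.72%, 5.53%, 3.66%, 4.49% and 7.14% of all genes did. The interaction was above 0 in 34 and below 0 in 51 of the 85, with a median of -0.06. It reached the 2-fold size upward in 4 and downward in 2, against 2.77% of all genes. The 1.5-fold size was reached upward in 7 and downward in 3, against 8.02%. Of 13 genes past 1.5-fold in a pairwise comparison, 7 lay in the dimmest of the 4 signal classes, 4 in the next and 2 in the brightest.

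Those 2 bright genes were Foxo6 and Pik3r3. Foxo6, the FoxO factor of the forebrain, stood at 2.72 and 2.83 on wild-type and heterozygous starch and at 3.45 and 4.70 on the sucrose arrays, with diet changes of 0.34 and 0.73. The related Foxo1 was higher on sucrose as well, by 0.23 and 0.29, and Foxo3 by 0.31 and 0.19. Pik3r3, a regulatory subunit of PI3K, stood at 2.42 on wild-type starch and between 1.24 and 1.54 on the other arrays, so that its genotype change on starch was -0.97 and its diet change in wild-type mice -0.65. Neither Foxo6 nor Pik3r3 had a second probe.

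The ligand, receptor, carrier and protease list, with 15 of 16 genes measured, had a median diet change of -0.03 in the wild type and 0.24 in heterozygous mice. Its median genotype change was -0.08 on starch and 0.33 on sucrose, with 7 and 11 of 15 higher, and its median interaction was 0.47. Beside the heterozygous diet value stand that genotype's choroid plexus sums, 1.31 on starch and 13.6 on sucrose, and ependymal sums, 1.42 and 3.34. Their part in these medians or in the values of Ins1, Igfbp1 and Stc2 was not tested. Pappa, a protease that cleaves IGFBP4, was 0.0303 on wild-type sucrose against 0.0985 on wild-type starch, 0.101 on heterozygous starch and 0.0770 on heterozygous sucrose, a diet change of -1.70 in wild-type mice. It had no second probe. The olfactory bulb sum was also lowest on wild-type sucrose, at 2.44, against 10.3 on wild-type starch and 9.70 and 5.44 on heterozygous starch and sucrose. The part of that tissue in the Pappa values was not tested. Pappa2, a relative of Pappa, went the other way, at 0.239 on wild-type sucrose and between 0.0861 and 0.142 on the other arrays, with 1.47. The other 3 probes of Pappa2 were each well above background on at most 2 arrays. Ins1, an insulin gene of the pancreas, was a dim spot of 0.0120 to 0.0165 on 3 arrays and of 0.0533 on heterozygous sucrose, and Igfbp1 ran from 0.00888 to 0.0216, highest on the same array. Stc2, a stanniocalcin that inhibits PAPPA, passed 1.5-fold with 0.69 for diet in heterozygous mice and 0.67 for genotype on sucrose, and Igfbpl1 passed for genotype on sucrose with 0.64, where its other probe gave 0.37 and did not pass. H19, the imprinted neighbour of Igf2, stood at 0.0326 on wild-type starch, 0.0216 on wild-type sucrose, 0.0226 on heterozygous starch and 0.0326 on heterozygous sucrose. By this spot, which lay in the dimmest signal class, H19 did not follow the order of Igf2. Its other probe was well above background on no array.

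Inside the cell, the 22 genes of the PI3K, Akt and mTOR list, all measured, had a median diet change of 0.08 in the wild type and -0.00 in heterozygous mice, with 18 of 22 higher on sucrose in wild-type mice and 10 of 22 in heterozygous mice. On sucrose 12 of 12 markers of cortical excitatory neurons were higher in wild-type mice and 5 of 12 in heterozygous mice (medians 0.25 and -0.15). Of the striatal markers 9 of 9 and 0 of 9 were higher, and of the cortical interneuron markers 4 of 8 and 3 of 8 (medians -0.01 and -0.12). Their part in the cascade's values was not tested. Akt2, the Akt kinase best known from insulin action, had diet changes of -0.26 and -0.09. In the 4 diet and genotype comparisons the 14 adaptors had medians between -0.05 and 0.06, and of them Irs4, a dim spot, passed 1.5-fold with 0.87 for diet in wild-type mice. In the same 4 comparisons the 19 inhibitors had medians between -0.03 and 0.04. From wild-type starch to heterozygous sucrose their median was 0.06, and for the interaction it was -0.08. Trib3, an Akt inhibitor induced by cell stress, was their largest diet change in heterozygous mice at -0.70, with -0.06 in wild-type mice.

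The list of FoxO factors and targets had a median of 0.03 and 0.10 for diet. Its targets did not move as one: Fbxo32, a ubiquitin ligase of muscle wasting, differed by 0.52 and 0.23, Pdk4, which restrains glucose oxidation, by -0.12 and -0.22, and Sesn3, a sestrin, by -0.00 and -0.44. Foxo4 was a dim spot of 0.0754 on wild-type sucrose and 0.0127 to 0.0144 elsewhere, and its other probe was well above background on no array. The mRNA binding protein Igf2bp2 had diet changes of -0.29 and -0.68 by its brightest probe, at levels under 0.05, and of -0.21 and -0.23 by its other probe, which did not reach 1.5-fold.

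**Figure D4:**
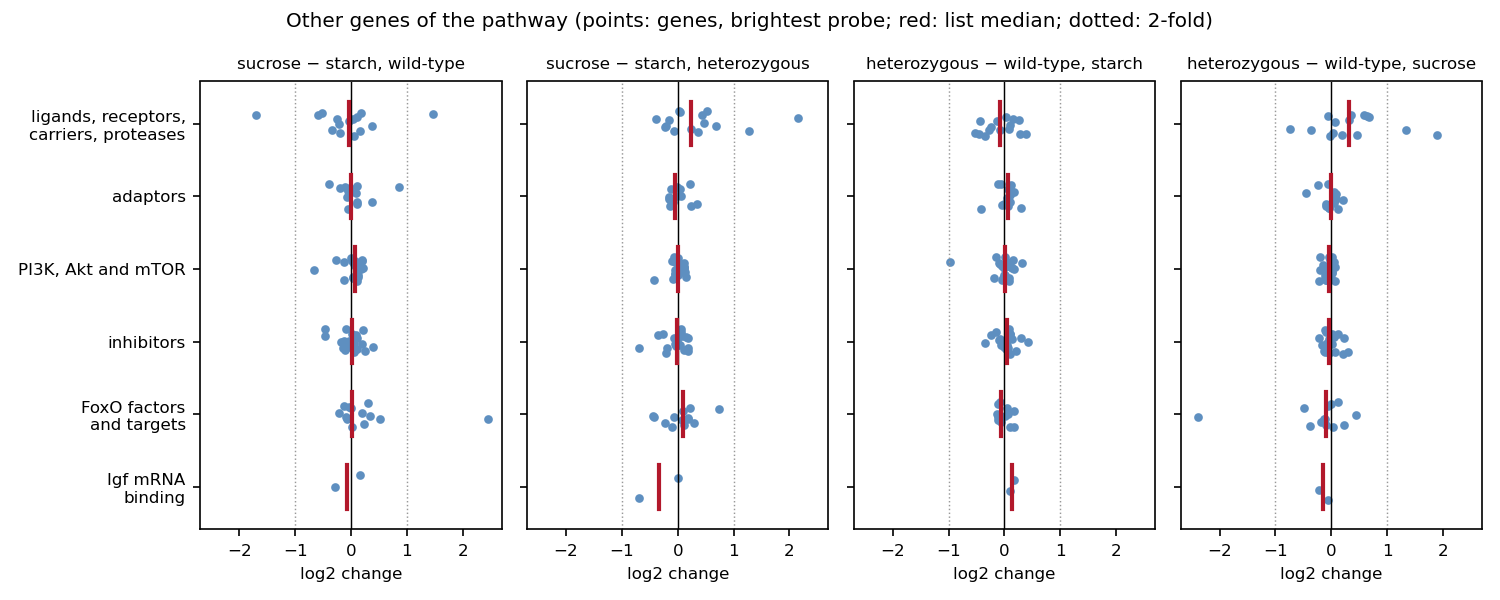
Log2 change of the other pathway genes in the diet and genotype comparisons, 1 point per gene (brightest probe), with the list median in red and 2-fold dotted. For diet in heterozygous mice the ligand, receptor, carrier and protease list has the widest spread. Single points stand apart in other panels: Foxo4 at 2.45 for diet in the wild type and -2.39 for genotype on sucrose, and Pik3r3 at -0.65 for diet in the wild type and -0.97 for genotype on starch.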

How the data were processed

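Intensity values were those the authors deposited in 4 Agilent Feature Extraction files (version 11.5.1.1, per the submitters' processing notes); per the file headers, background was subtracted with spatial detrending, signals were detrended within the array and low signals replaced by a surrogate. The authors also deposited a series matrix of ratios, which on comparison were the processed signal divided by 1 value per array near its 75th percentile. Processed signals were divided here by each array's own 75th percentile (controls excluded) and taken to log2. Spots marked as outliers by the software were dropped, and repeated spots averaged. Probes well above background on all 4 arrays entered. The 19176 gene names were 18298 RefSeq symbols (GRCm38.p6, used for names only) and 878 older symbols. Pairwise differences have no p-value. The additive fit used limma 3.58.1 (R 4.3.3) with Benjamini-Hochberg adjustment and was tested on simulated data. Repeated spots were non-control probes printed 10 times and control probes.

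The genes named were Glo1, all members, pathway genes past 1.5-fold in a pairwise comparison and the leading marker of a list; Kcne2, Folr1, Slc4a5, Igfbp3, Igfbp6, Igfbp7, Foxo1, Foxo3, Akt2, Fbxo32, Pdk4, Sesn3 and Dcn were added after their values were seen. A result for 1 listed gene is not reported here. Members and lists were chosen with earlier results of these data known. The 4 arrays shared a slide, so array position and group cannot be told apart.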

Additional observations from a re-analysis of the deposited data

Results flagged for a closer look

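The diet change of Igfbp2 had opposite signs: it was -0.132 in the wild type and 0.355 in heterozygous mice, each over 2 SDs of a difference of single spots. The difference between the genotypes was not tested, since each value comes from 1 pair of arrays. Under 9 alternatives the values stayed between -0.13 and -0.10 and between 0.33 and 0.37. Igfbp2 has 1 probe, kept by each filter, so only median scaling, quantile, cyclic loess and normexp could move them appreciably. With normexp the wild-type value was -0.10, under 2 of the spot SDs of 0.06 used here.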

How the results depend on the processing

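Of 9 alternatives (median scaling, quantile, cyclic loess, normexp, no filter, only probes above the median signal, outlier spots kept, the mean over a gene's probes, and the authors' series matrix), each left 0 members past 2-fold in the 6 contrasts and 0 member probes called by limma wherever the fit was rerun; a trended prior variance also called 0 of them. The smallest adjusted p of a member probe ran from 0.122 to 0.814 for diet. At an unadjusted p under 0.05, 2 to 5 member probes were found for diet and 1 to 4 for genotype. Single values moved by more than the spot error mainly with the mean over probes (15 of 60) and once with cyclic loess. The mean could move only the 6 genes with more than 1 probe, not the 4 with 1 probe. With the mean, Igf2 on starch differed by 0.34 between genotypes. Under all 9, Irs2 for diet stayed between -0.51 and -0.48 in wild-type and between -0.49 and -0.42 in heterozygous mice, and Igf2 in heterozygous mice between 0.59 and 0.69. Irs2 has 1 probe, kept by each filter, so only median scaling, quantile, cyclic loess and normexp could move its values appreciably. For Igf2 the mean over its probes could do so as well. Insr, left out by the filter above the median signal, Igf1, Igf1r and Igfbp4 changed sign in some contrast with the mean over probes. No scaling moved the median of all genes by over 0.1. No paired analysis was possible because each group has 1 array, so that no replicate number pairs samples and none could be left out; the additive fit itself compares each factor within the levels of the other. Over all genes the count past 2-fold did move: it was 149 for genotype on starch, 1236 with no filter, 45 with normexp and 20 above the median signal. In that order it was 277, 1345, 101 and 63 for diet in the wild type, 340, 1284, 147 and 65 in heterozygous mice, 337, 1353, 154 and 69 for genotype on sucrose, 380, 1485, 145 and 88 from wild-type starch to heterozygous sucrose, and 531, 2197, 222 and 89 for the interaction. The share of these calls that were higher was 44.3% for genotype on starch, 55.6% with normexp and 33.4% with no filter. With no filter it also moved from 69.2% to 48.4% from wild-type starch to heterozygous sucrose, from 80.4% to 54.9% for genotype on sucrose, from 74.1% to 63.3% for diet in heterozygous mice and from 33.9% to 43.9% in the wild type. Above the median signal it was lower by over 10 percentage points for genotype on starch and for diet in the wild type. limma called 28 probes for diet with normexp and 1 with the trended prior, none of them members. Dim spots such as Ins1, Igfbp1 and Foxo4 are least certain.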

Other observations

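No member passed 2-fold by its brightest probe, so the rule for genes with the most similar pattern named none. Added after the values were seen, the 5 genes nearest to Irs2 and to Igf2 by the Euclidean distance of centred log2 levels over the 4 arrays were as follows. For Irs2 they were Scg2, the precursor of secretogranin II in dense-core vesicles (distance 0.02), Frmd3, Gbp3, Tmem45a and Olfr703 (0.06). Scg2 stood at 25.9 and 26.7 on wild-type and heterozygous starch and at 18.4 and 19.2 on sucrose. For Igf2 they were Lamb1, a laminin chain of basement membranes (0.05), Frem3, Kit, Slc27a3 and Tmem98 (0.07). Lamb1 stood at 1.40, 1.63 and 1.53 on wild-type starch, wild-type sucrose and heterozygous starch and at 2.48 on heterozygous sucrose. With 4 arrays and 19176 genes, close distances are found for many genes, and Olfr703 and Frem3 were dim, at levels under 0.05.

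Among the growth factor carriers outside the members, Igfbp3 was 1.38, 1.34, 1.13 and 1.53 on wild-type starch, wild-type sucrose, heterozygous starch and heterozygous sucrose, with a diet change of 0.44 in heterozygous mice. Igfbp6 was lowest on heterozygous sucrose, at 10.2, where the highest array, wild-type sucrose, had 13.1, and Igfbp7 lay between 7.37 and 7.89.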
